A study of Hordeum vulgare with 10 samples.

Results

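A group of 36 barley genes had at least 4-fold higher mean normalized counts in heated than in control roots, while their means in shoots stayed within a narrow band. Under scaling to total reads the same limits gave 18 genes, 13 of them among the 33 of the 36 whose reads could be rescaled. The genes were selected on the deposited group means of 24211 genes with MLOC identifiers listed for both tissues. The ratio of a tissue is the heat mean plus 1 divided by the control mean plus 1. A gene was taken where its root ratio was at least 4, its heated root mean at least 100, its shoot ratio between 0.8 and 1.25 and its overall shoot mean at least 20. Phosphate-related genes named in the study were to be left out, but none of the 10 with an MLOC identifier met these limits. In all, 573 genes met the root limits. Of these, 428 were above the shoot band, 7 below it, 102 had a shoot mean under 20 and 36 remained.

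Roots and shoots came from plants of barley cultivar Rolap that were 2 weeks old. Control plants stayed at 22 °C and heated plants spent 1 h at 35.5 °C before collection. The roots gave 2 control and 2 heated libraries, and the shoots 3 control and 3 heated libraries, which the methods call biological replicates. All plants share 1 cultivar, 1 age and 1 duration of heat, so that neither earlier nor later times were covered. In whole roots and whole shoots, fewer cells of a type and less RNA per cell cannot be told apart.

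In plants, a sudden rise in temperature is answered within minutes through heat shock transcription factors, which switch on genes for chaperones such as Hsp90, proteins that keep other proteins folded. Part of this response is common to all organs, and part depends on the organ and on the genes it already uses. The 36 identifiers are paired with no gene name in the sources used here, so the genes are described by pattern and not by function.

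A normalized count is the number of reads of a gene in a library divided by the size factor of that library, a scaling for depth. Roots and shoots were scaled separately, so normalized counts are compared only within a tissue. To compare roots with shoots, the reads of all 10 libraries were put on 1 scale as CPM (reads per unit of library size, after TMM scaling) and fitted together. The deposited means were split back into the whole reads of each library, which are numbered here by falling size factor and carry no replicate letter. Root libraries held 16026856 to 16830180 reads in genes, and shoot libraries 7081072 to 8821489 reads in the genes that could be split. Genes not split in shoots, among them very abundant ones, are left out of the library sizes behind the CPM, also in roots. Those sizes, after the default filter, were 15736616 and 15084221 reads in control roots but 13717136 and 13318253 in heated roots. CPM in both tissues thus refer to only a part of the reads in genes. For pairs of libraries from 1 group, the median chi-square over genes, a squared difference, was 2.28 to 6.49 times its value under sampling noise. None was therefore taken for a second sequencing of the same library. Separate libraries from 1 sample cannot be told apart from separate samples in this way. The heat marker Hsp90.1 (MLOC_5618) rose from a mean of 163 to 196171 normalized counts in roots and from 51.0 to 30077 in shoots. The root transporter gene PHT1;1 (MLOC_28370) had 982 and 989 reads in control roots while none of the 6 shoot libraries held a read of it. Both markers went with the labels.

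**Figure D1:**
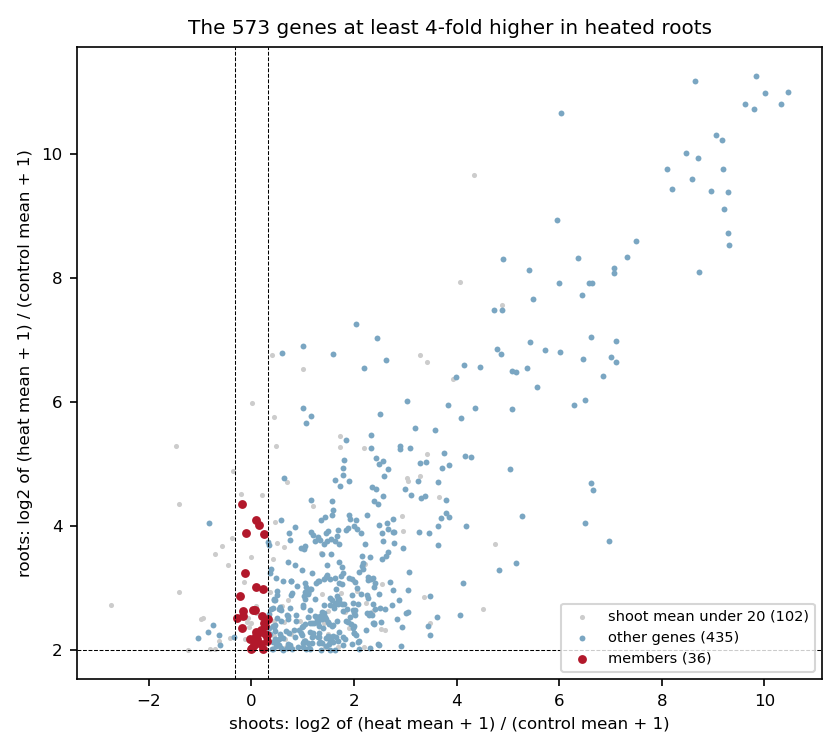
Log2 ratio of heat to control in shoots (horizontal axis) and roots (vertical axis) for the 573 genes with a root ratio of at least 4 and a heated root mean of at least 100, each point being 1 gene. The 36 members lie between the dashed lines of the shoot band, and the highest root log2 ratio among them is 4.35.

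The root ratio of the 36 genes ran from 4.05 to 20.4 with a median of 5.21, against a median of 8.68 in the 428 genes that lay above the shoot band. A root ratio of at least 10 was reached by 5 of the 36 genes (13.9%) and by 190 of the 428 (44.4%). Most of the 36 were already transcribed in control roots. A control root mean of at least 100 was found in 26 of them (72.2%), against 267 of the 428 (62.4%). These values belong to the contrast on which the genes were selected and are given as a description.

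The reads of all 36 genes separated the root groups without overlap. The lower of both heated root libraries was 3.20 to 19.5 times the higher of both control root libraries, with a median of 4.84. The root ratio of the selection favours such a separation, and its share over all genes was not computed, so it is only a description. With edgeR's quasi-likelihood test, 36 of 36 were called higher in heated roots at an adjusted p under 0.05, against 21.5% of the 18453 genes tested. The selection used the same contrast, so nothing is read from this count. The fitted log2 difference ran from 2.02 to 4.36 with standard errors from 0.10 to 0.34. Its 95% interval lay wholly above 1 for all 36 genes and wholly above 2 for 20 of them. Together the 36 genes took 0.0638% of the normalized reads in genes in control roots and 0.273% in heated roots.

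**Figure D2:**
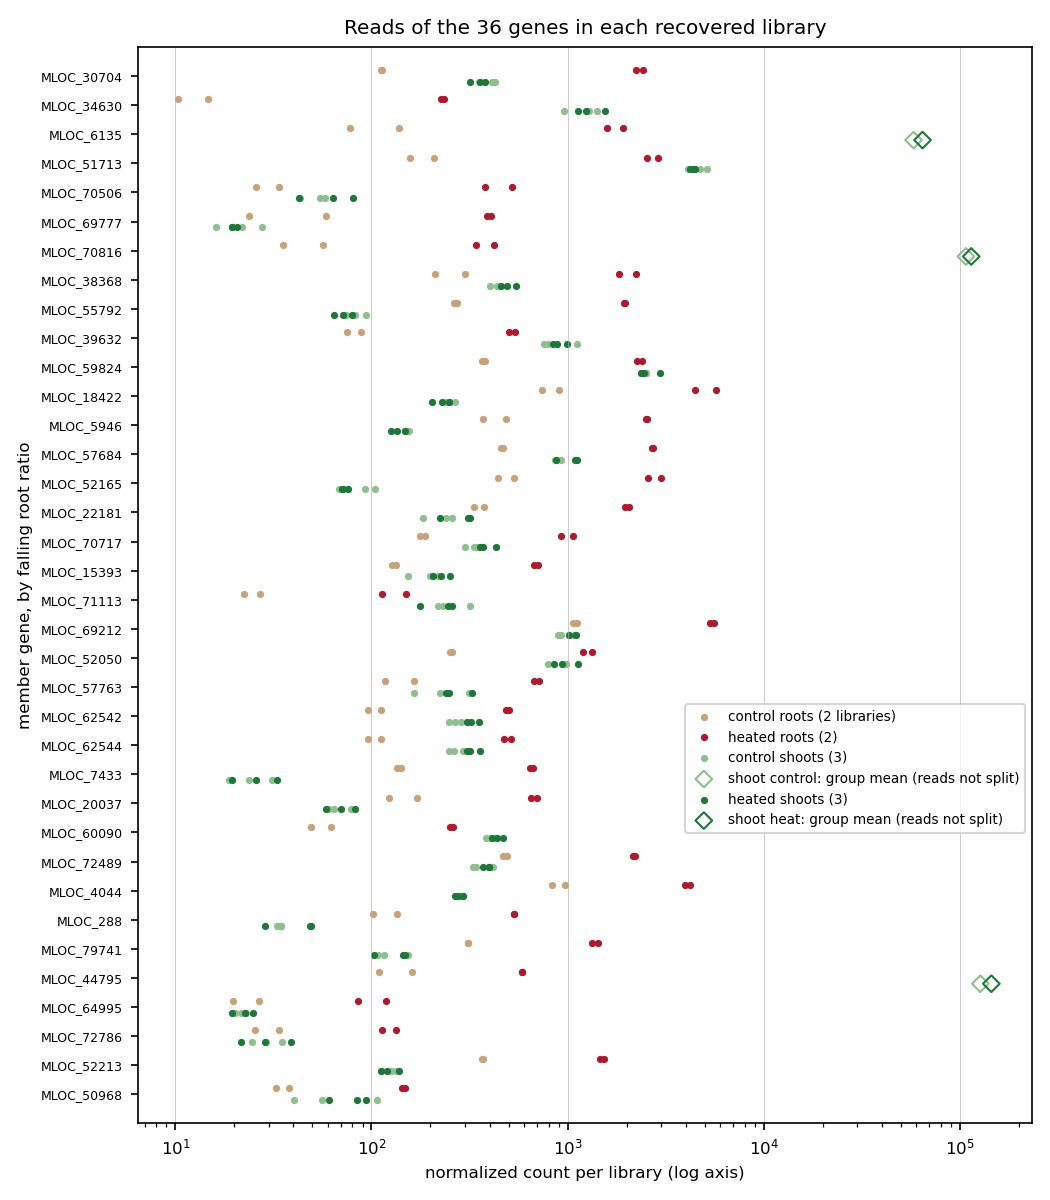
Normalized counts on a log axis for the 36 genes, by falling root ratio from top to bottom, with 1 point for each recovered library and roots and shoots scaled separately. Open diamonds are deposited shoot means of the 3 genes whose shoot reads were not split, and for every gene both heated root points lie to the right of both control root points.

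MLOC_30704 had the highest root ratio, 20.4. Its normalized counts were 114 and 111 in control roots against 2417 and 2222 in heated roots. In shoots they were 356, 425 and 412 in control plants and 378, 318 and 359 in heated plants. The root groups were far apart and the shoot groups overlapped. On the common scale it had 7.14 and 7.03 CPM in control roots, below the 46.3 to 61.1 CPM of the 6 shoot libraries, and 139 and 129 CPM in heated roots, above them. The fitted root difference was 4.36 ± 0.12 (SE, n = 2 and 2) on the log2 scale, and the shoot difference was -0.17 with a 95% interval from -0.41 to 0.07.

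The next gene by root ratio, MLOC_34630, was nearly silent in control roots. It had 14.7 and 10.3 normalized counts in control roots against 235 and 227 in heated roots, a ratio of 17.2. Shoots held 954, 1285 and 1414 in control plants and 1238, 1132 and 1551 in heated plants. On the common scale heated roots, at 13.6 and 13.2 CPM, stayed below every shoot library, at 138 to 225 CPM. The control root values rest on 18 and 12 reads, so that their ratio is less certain than that of MLOC_30704 (log2 difference 4.18 ± 0.24, SE, n = 2 and 2).

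MLOC_51713 and MLOC_70506 had like root ratios of 14.8 and 14.7. MLOC_51713 had 156 and 209 normalized counts in control roots against 2537 and 2893 in heated roots. Its shoots lay between 4110 and 5158 in control plants and between 4194 and 4447 in heated plants. On the common scale its heated roots, at 146 and 168 CPM, were below all 6 shoot libraries, at 596 to 748 CPM. MLOC_70506 went from 33.6 and 25.9 in control roots to 523 and 380 in heated roots. Its shoots held 43.3 to 58.2 in control plants and 42.5 to 80.0 in heated plants. On the common scale it had 2.11 and 1.64 CPM in control roots, 30.2 and 22.1 in heated roots and 6.17 to 11.7 in the shoot libraries, so that it crossed from below the shoots to above them.

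MLOC_69777 had the largest spread between control root libraries, 23.7 and 58.6 normalized counts, a 2.47-fold gap. Both heated root libraries, 390 and 408, were far above it. Its shoot counts were few, with 16.1 to 27.6 in control and 19.4 to 20.7 in heated plants. The fitted root difference of this gene, 3.27 ± 0.34 (SE, n = 2 and 2), had the largest error of the 36. Control root libraries lay within 1.5 times of each other for 33 of the 36 genes and heated root libraries for all 36. MLOC_6135 and MLOC_70816 were the other exceptions among the control libraries.

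The genes with most reads in heated roots follow. Gene lengths were not used, so their counts are not compared as levels between genes. MLOC_69212 had 1114 and 1061 normalized counts in control roots against 5606 and 5352 in heated roots, a ratio of 5.03. Its shoots held 894 to 1020 in control plants and 1022 to 1108 in heated plants, and here the heated shoot libraries were all above the control ones, though narrowly. MLOC_18422 rose from 900 and 744 to 5725 and 4463 in roots, against 241 to 267 in control shoots and 203 to 248 in heated shoots. MLOC_4044 rose from 828 and 976 to 3971 and 4220, while its 6 shoot libraries stayed between 268 and 292. The spread among those 6 libraries was small beside the root change, and the fitted shoot difference was -0.03 with a 95% interval from -0.23 to 0.18.

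MLOC_52165, MLOC_51713, MLOC_57684, MLOC_5946, MLOC_59824, MLOC_30704 and MLOC_72489 complete the 10 genes with the highest heated root means, which ranged from 2180 to 5479. MLOC_52165 had 531 and 440 normalized counts in control roots against 3007 and 2586 in heated roots. In shoots it had 92.5, 105 and 68.0 in control plants and 70.8, 75.5 and 71.2 in heated plants, with a shoot ratio of 0.82, the lowest of the 36. MLOC_5946 went from 371 and 483 to 2500 and 2542 in roots, and was the only one of the 33 with shoot values per library whose heated shoot libraries, 125 to 148, all lay below its control shoot libraries, 149 to 155. MLOC_57684 and MLOC_59824 had root ratios of 5.85 and 6.25, and MLOC_72489 one of 4.54.

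MLOC_38368 and MLOC_55792 had root ratios of 7.93 and 7.31. MLOC_38368 had 211 and 299 normalized counts in control roots against 1825 and 2238 in heated roots, and its heated shoots, 457 to 544, lay just above its control shoots, 401 to 443. MLOC_55792 had 263 and 272 in control roots against 1950 and 1967 in heated roots, against 73.9 to 94.2 in control shoots and 64.7 to 79.2 in heated shoots. For MLOC_55792 the root libraries of a group were nearly equal and the shoot groups overlapped. MLOC_39632, with 75.3 and 88.0 in control roots against 504 and 537 in heated roots, had 758 to 1111 in control shoots and 840 to 999 in heated shoots. Its root ratio was 6.31 and its shoot ratio 1.02.

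The 5 lowest control root means belonged to MLOC_34630, MLOC_64995, MLOC_71113, MLOC_72786 and MLOC_70506, between 12.5 and 29.7 normalized counts. MLOC_64995 rose from 19.6 and 26.7 to 85.5 and 118, and its shoot libraries all held between 19.5 and 24.8. MLOC_71113 rose from a mean of 24.7 to 114 and 149, with 219 to 319 in control shoots and 177 to 258 in heated shoots. MLOC_72786 rose from 25.4 and 33.6 to 114 and 134, with 24.6 to 34.8 in control shoots and 21.6 to 39.0 in heated shoots. The root log2 differences of these 5 genes had standard errors of 0.24 to 0.29, larger than those of most other members.

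The remaining genes, apart from MLOC_6135, MLOC_70816 and MLOC_44795, which are described further on, had root ratios from 4.05 to 5.67. MLOC_52213 had 364 and 373 normalized counts in control roots, 1541 and 1458 in heated roots and 112 to 138 over its 6 shoot libraries. MLOC_50968 rose from 32.7 and 37.9 to 149 and 143, with 40.4 to 107 in control shoots and 60.5 to 94.1 in heated shoots, which overlapped. MLOC_22181 rose from a mean of 354 to 2011 in roots, and MLOC_70717 from 183 to 997. MLOC_15393, MLOC_52050 and MLOC_57763 had root ratios of 5.27, 4.93 and 4.92. MLOC_7433, MLOC_20037, MLOC_60090, MLOC_288 and MLOC_79741 had root ratios between 4.43 and 4.69, and in each of them both heated root libraries were above both control libraries.

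MLOC_62542 and MLOC_62544 may not be separate measurements. Each had 137 and 111 reads in control roots, then 431 and 407 against 439 and 398 in the heated root libraries, and differed by at most 6 reads in any shoot library. Whether their gene models overlap or are near-identical copies was not tested, so their values, with root ratios of 4.73 each, are uncertain as separate observations. Counted once, the list held 35 genes.

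Whether the 36 genes responded at all in shoots was looked at through the fit over the shoot libraries. For 33 of them the shoot means could be split and fitted, with 3 control and 3 heated libraries. The median fitted log2 difference of these 33 was 0.09, against 0.00 over all genes tested. The 95% interval lay within 1 log2 unit of 0 for all 33 genes and within 1.5-fold for 23, with bounds from -0.75 to 0.89. It spanned 0 for 29. The heated and control libraries overlapped for 27 of the 33, and the heated ones lay wholly above for 5 and wholly below for 1. Shares over all genes were not computed for these intervals or overlaps. The shoot band favours both, so these counts are not read as a trait of the 33. A called shoot difference was found for 2 of 33 (6.06%), against 38.5% of the 16141 genes tested. Because the shoot band was part of the selection, the low count is a consequence of it.

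The 2 called genes were the pair with near-equal reads. MLOC_62542 had 266, 247 and 288 normalized counts in control shoots and 323, 354 and 308 in heated shoots, a log2 difference of 0.30 ± 0.10 (SE, n = 3 and 3, adjusted p = 0.0352 from edgeR). MLOC_62544 had a difference of 0.29 ± 0.11 (SE, adjusted p = 0.0459 from edgeR). All heated libraries lay above all control libraries for both, by a small margin. DESeq2 called neither of them nor any other of the 33, with 2 genes at an unadjusted p under 0.05. Without the second heated shoot library no gene was called and none reached an unadjusted p under 0.05, and without the first control shoot library none was called and 2 reached it. MLOC_38368 and MLOC_70717, whose heated shoot libraries also lay above the control ones, did not pass the adjustment.

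**Figure D3:**
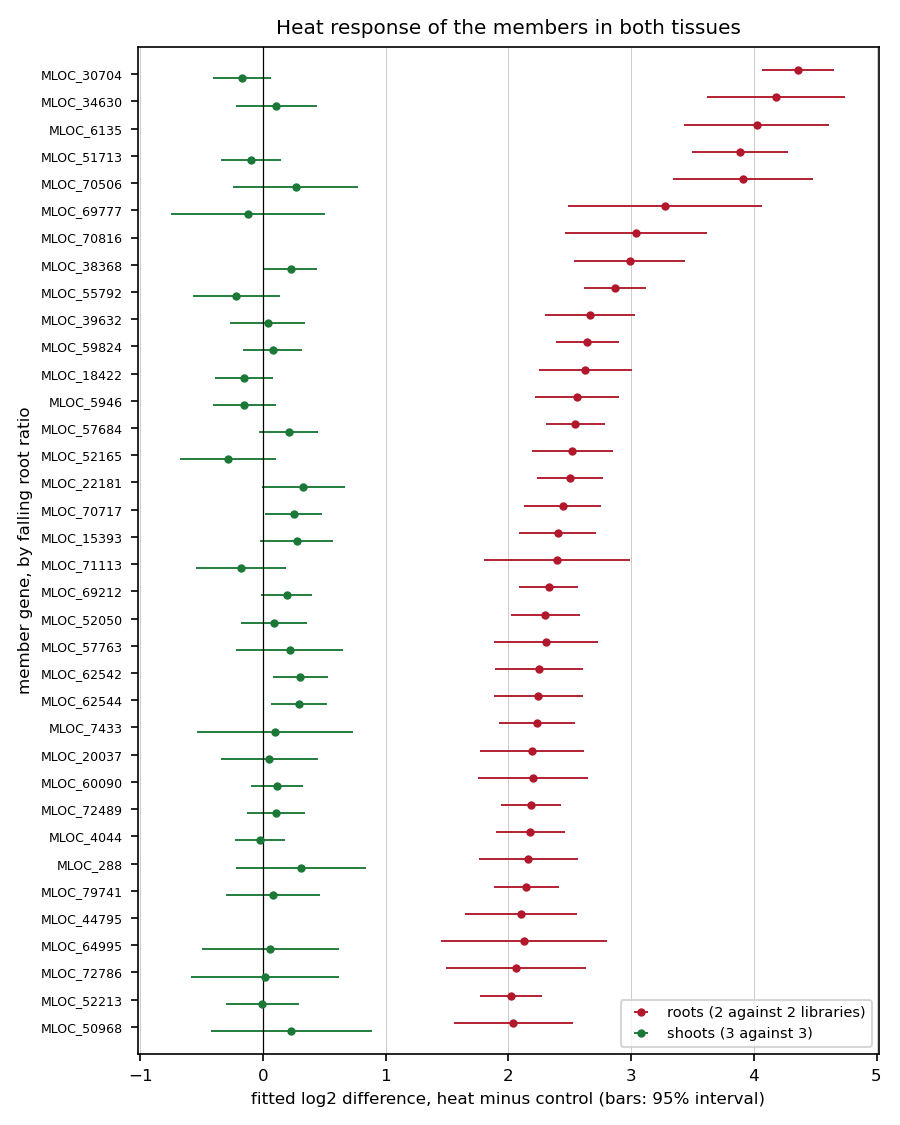
Fitted log2 difference between heated and control plants with its 95% interval for each of the 36 genes in roots (red) and for 33 of them in shoots (green). The root intervals all lie above 1, and the shoot intervals all lie between -0.75 and 0.89.

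The difference between both responses was fitted over all 10 libraries. It was larger in roots for 33 of 33 genes at an adjusted p under 0.05 with edgeR, against 7.73% of the 19063 genes tested. It ran from 1.68 to 4.41 on the log2 scale with a median of 2.07, against -0.09 over all genes tested. The selection fixes this difference, and the values describe its size. The smallest belonged to MLOC_50968, with 1.68 ± 0.46 (SE), and the largest to MLOC_30704, with 4.41 ± 0.17 (SE).

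How the root levels stood against the shoot levels of the same gene was not a contrast of the selection, although the control and heated means entered its ratios. In control plants, 22 of 33 genes were lower in roots than in shoots at an adjusted p under 0.05 with edgeR, and 33.9% of all genes tested were. Higher levels in control roots were found for 7 of the 33, against 41% of all genes tested. The median difference of the 33 genes, roots minus shoots, was -1.74 on the log2 scale, and 0.15 over all genes. With 1 library left out in turn, 22 or 23 of the 33 were called lower, and 21 with scaling to total reads. Because the same means entered the selection, these shares are a description.

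In heated plants the balance was turned. Lower levels in roots were called for 9 of 33 genes, against 36.6% of all genes tested, and higher levels for 19, against 39.5%. The median difference of the 33 was 0.86, and 0.08 over all genes. As shoots were held steady by the selection and roots rose at least 4-fold, the shift between the conditions follows from it. The classes below describe where each gene began and ended. Their shares over all genes were not computed, so the class counts are not read as a trait of the 33.

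**Figure D4:**
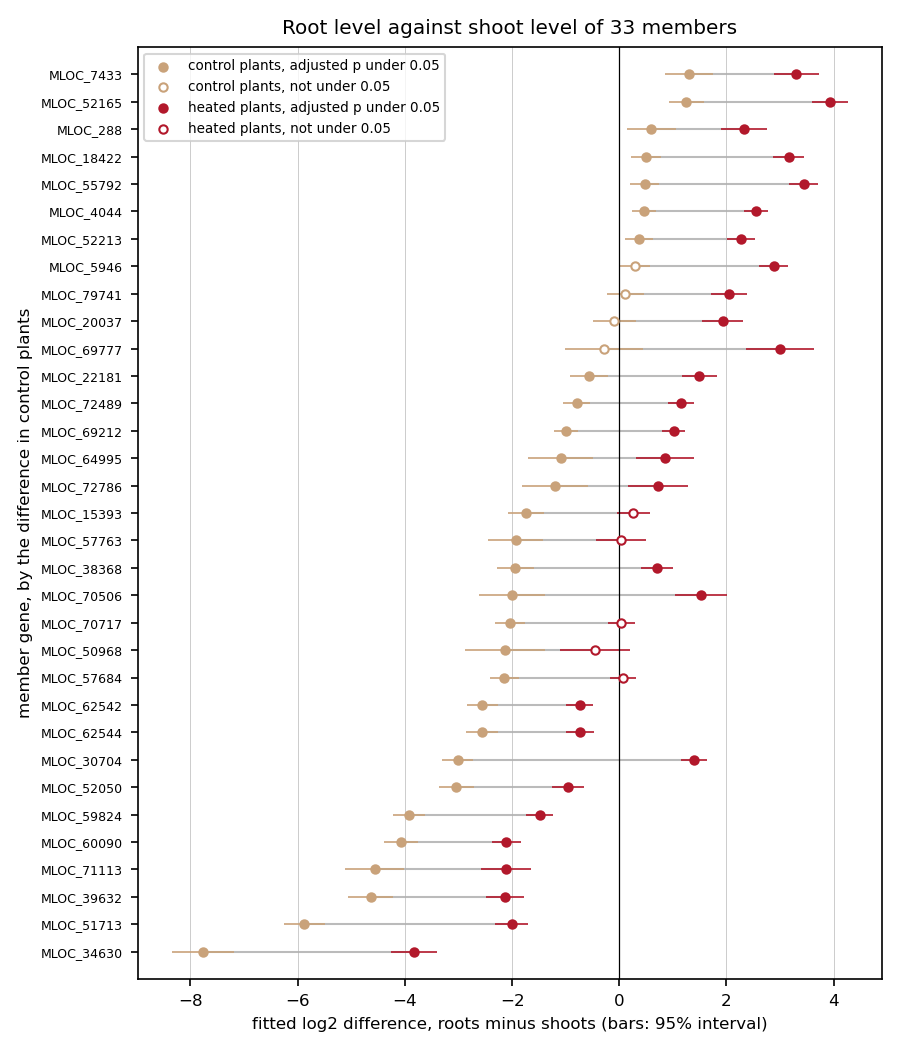
Fitted log2 difference of roots minus shoots for 33 genes in control plants (brown) and heated plants (red), with 95% intervals and filled points for an adjusted p under 0.05. In control plants 24 of the points lie left of 0 and in heated plants 10 do.

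In 8 genes the root level was called lower than the shoot level in control plants and higher in heated plants. These were MLOC_30704, MLOC_70506, MLOC_38368, MLOC_22181, MLOC_69212, MLOC_72489, MLOC_64995 and MLOC_72786. MLOC_30704 moved from -3.02 ± 0.13 to 1.39 ± 0.11 (SE) on the log2 scale, the widest crossing. On the common scale MLOC_69212 had 69.9 and 67.1 CPM in control roots, below the 129 to 161 CPM of the 6 shoot libraries, and 323 and 311 CPM in heated roots, above them. MLOC_22181 moved from -0.56 ± 0.16 to 1.49 ± 0.15 (SE), and its control call was lost with scaling to total reads, at -0.17. The heated call of MLOC_64995 was lost without the second heated root library, at 0.59. That of MLOC_72786 was lost without the second heated root, the second heated shoot or the third heated shoot library, at 0.51 to 0.67.

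In 9 genes the heated roots remained below the heated shoots. MLOC_34630 went from -7.77 ± 0.27 to -3.83 ± 0.20 (SE) and MLOC_51713 from -5.87 ± 0.18 to -2.01 ± 0.14 (SE). MLOC_39632, MLOC_71113, MLOC_60090 and MLOC_59824 ended between -2.13 and -1.49. MLOC_52050 ended at -0.96, and the near-equal pair MLOC_62542 and MLOC_62544 both ended at -0.74. For these genes heat narrowed a gap between the organs and did not close it.

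In 5 genes the heated root level could not be told apart from the heated shoot level. MLOC_57684 went from -2.15 ± 0.13 (SE) in control plants to 0.07 in heated plants, with a 95% interval from -0.17 to 0.31. MLOC_70717 went from -2.04 to 0.03, with an interval from -0.22 to 0.29. MLOC_57763 had an interval from -0.44 to 0.49 in heated plants, MLOC_15393 one from -0.04 to 0.57 and MLOC_50968 one from -1.11 to 0.21. The first 4 intervals lie within 1.5-fold, while that of MLOC_50968 reaches past 2-fold. Scaling to total reads moved the median of all genes in this contrast from 0.08 to 0.37, and MLOC_57684, MLOC_70717 and MLOC_15393 were then called higher in heated roots. These totals lack, for both tissues, the genes whose shoot reads could not be split, among them very abundant ones. Including these genes would raise the totals of roots and shoots, and scaling to all reads in genes was not run. How far the classes hold under such a scaling was therefore not tested.

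In 7 genes the roots were already above the shoots in control plants and rose further. MLOC_52165 went from 1.25 ± 0.15 to 3.94 ± 0.15 (SE), the highest final difference, and MLOC_7433 from 1.29 ± 0.21 to 3.30 ± 0.20 (SE). MLOC_55792, MLOC_18422, MLOC_4044, MLOC_288 and MLOC_52213 began between 0.37 and 0.60 and ended between 2.27 and 3.44. Without the second control root library, 3 of the 7 were still called in control plants, MLOC_52165, MLOC_7433 and MLOC_18422. Without the first, MLOC_18422 and MLOC_52213 lost their call, at 0.28 and 0.31. MLOC_288 and MLOC_52213 also lost it without the second heated root or the second control shoot library, and MLOC_288 without the first control shoot library. MLOC_52165 and MLOC_7433 stayed called without any 1 library. In 4 further genes, MLOC_69777, MLOC_5946, MLOC_20037 and MLOC_79741, the control levels were not called different and the heated roots were higher by 1.93 to 2.99. MLOC_69777 was called lower in control roots, at -1.13, without the second control root library. MLOC_5946 was called higher in control roots with scaling to total reads, without the filter and without the first control root library, at 0.31 to 0.68, and MLOC_79741 with scaling to total reads, at 0.50.

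The 3 genes MLOC_6135, MLOC_70816 and MLOC_44795 form a case of their own, because they were very abundant in shoots and scarce in roots. MLOC_6135 had 77.8 and 138 normalized counts in control roots against 1595 and 1921 in heated roots, against deposited shoot means of 58180 and 64646. MLOC_70816 had 56.5 and 35.4 in control roots against 422 and 339 in heated roots, against shoot means of 107581 and 114528. MLOC_44795 had 161 and 109 in control roots against 585 and 583 in heated roots, against shoot means of 127514 and 145075. These shoot means were too large to be split, so the 3 genes have no shoot value per library and are in neither the shoot fit nor the fit over both tissues.

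Other shoot-abundant genes also had more reads in heated roots. A group defined after the values were seen holds the 92 genes with shoot means of at least 10000 in both conditions and control root means under 1% of the shoot mean, and the 3 genes are among them. Of the other 89 genes, 76 (85.4%) had a higher mean in heated roots, against 50.8% of the 21897 MLOC genes with root reads. Their median root ratio was 1.99, and 11 had a root ratio of at least 4. These ratios depended on the control library. In 41 of the 89 genes the first control root library was over 2 times the second, and in none the reverse. Against the first alone the median root ratio was 1.53 and 7 genes reached 4, and against the second alone it was 4.25 and 47 genes did. Their summed normalized counts were 4382 and 3681 in control roots against 7504 and 7138 in heated roots, and MLOC_43331 alone carried a large part of this difference. Without it the sums were 3805 and 3199 in control roots against 5193 and 5131 in heated roots, with both heated libraries still above both control libraries. The root mean of these 89 genes was a median 0.0318% of the shoot mean in control plants and 0.0622% in heated plants.

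The 3 genes lay above these medians, but MLOC_44795 and MLOC_70816 were within the range of the other 89, which reached 1.12% in heated roots. As a share of the shoot mean, the root mean went from 0.106% to 0.403% for MLOC_44795 and from 0.0427% to 0.332% for MLOC_70816. For MLOC_6135 it went from 0.185% to 2.72%, the highest share in heated roots among the 92 genes. In heated roots, 13 of the 89 genes had a higher share than MLOC_44795 and 17 a higher one than MLOC_70816. Against the first control root library alone, the root ratio was 3.61 for MLOC_44795, 6.64 for MLOC_70816 and 22.3 for MLOC_6135. Against the second it was 5.30, 10.5 and 12.7. Because of the separate scaling of the tissues, these shares are comparable between genes but not exact as levels. The part that the higher root counts of other shoot-abundant genes had in the values of the 3 genes was not tested. Without them the list held 33 genes with a median root log2 ratio of 2.37, against 2.38 with them.

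**Figure D5:**
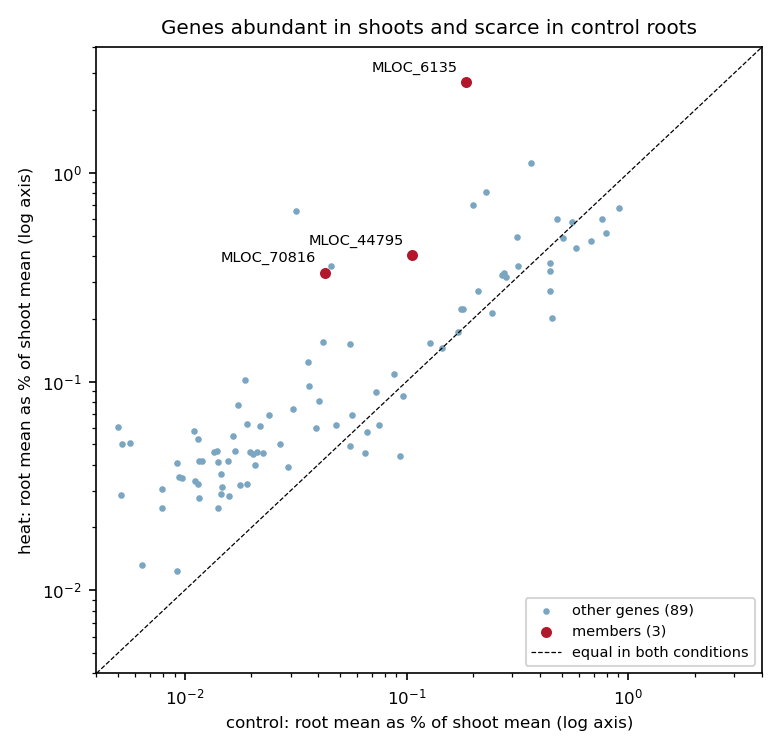
Root mean as a percentage of the shoot mean on log axes, in control plants (horizontal) and heated plants (vertical), for 92 genes abundant in shoots and scarce in control roots, each point being 1 gene. Most points lie above the dashed line of equality, and MLOC_6135 stands highest at 2.72%.

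The 33 other genes together took 0.0617% of the normalized reads in genes in control roots and 0.259% in heated roots, and 0.117% and 0.103% in control and heated shoots. In the shoots the summed normalized counts of the 33 were 16784 and 17353.

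The limits of the selection cut through a continuous range. Just inside the root ratio of 4 were MLOC_50968 at 4.05, MLOC_52213 at 4.06, MLOC_72786 at 4.09, MLOC_64995 at 4.25 and MLOC_44795 at 4.29. Just outside were MLOC_24198 at 3.96, MLOC_75270 at 3.93, MLOC_70480 at 3.80, MLOC_70482 at 3.77 and MLOC_68788 at 3.76. At the upper edge of the shoot band, MLOC_22181 lay just inside at 1.249 and MLOC_57269 just outside at 1.258, with a root ratio of 13.4. At the lower edge, MLOC_52165 lay inside at 0.822 and MLOC_40168 outside at 0.788. The heated root mean of MLOC_64995 was 102 and that of MLOC_55037, left out with a root ratio of 9.19, was 89.3. The shoot mean of MLOC_69777 was 20.9, and MLOC_28088 was left out at 15.8. Genes on both sides of each limit were thus close in the value that decided.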

How the data were processed

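Strand-specific reads were aligned by the authors to the barley genome of Ensembl Plants (TopHat2), assigned to genes (HTSeq) and compared within each tissue (DESeq). The tool versions and the strand setting are not stated in any source used here. The deposited signal values used are mean normalized counts per group. The deposited fold changes and p-values of the authors were not used. A mean adds up whole reads of its libraries, each divided by the size factor and the number of libraries, and was split into these reads: all 21408 and 21350 root means above 0, and 20588 of 20721 and 20527 of 20698 shoot means. In shoots, 182 genes have no split reads, nearly all because means above 12000 were not searched, and these are in no shoot or joint fit. Of 2000 means moved at random per group, 0 to 1 could be split. Lines that name no gene held 60.4% to 67.7% of normalized reads and were left out.

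Reads were tested with edgeR 4.0.16 (TMM, default filter, quasi-likelihood, Benjamini-Hochberg over all genes tested) in R 4.3.3, heat against control within a tissue and over all 10 libraries for tissue differences. Alternatives were total-read scaling, no filter, DESeq2 1.42.0, other limits of the selection, a pseudocount of 10 and leaving out each library. Total reads were summed over genes with split reads. The unsplit shoot genes are thus missing from the shoot totals and, for both tissues, from the joint totals. The scripts were tested on simulated data. Genes were named by rank of root ratio, heated root, control root and shoot mean and by nearness to the limits, and others to account for every member. The members and lists were chosen with earlier results of these data known. No identifier of the 36 matched the table of barley gene names at hand (0 of 36), and no sequence was used. P-values set a difference between groups against the estimated spread between these libraries. Standard errors were worked back from each fitted difference and its test statistic. The intervals used the degrees of freedom of the test. Both borrow information on spread from other genes and do not rest on the libraries of 1 gene alone.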

Additional observations from a re-analysis of the deposited data

Results flagged for a closer look

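The difference between the root and the shoot response was called for 33 of the 33 genes tested, with edgeR's fit over both tissues. It stands here because the same contrast differed between the tissues, which the selection of the genes fixes.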

How the results depend on the processing

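The number of genes depended on the limits. It was 36 as given, 68 at a root ratio of at least 3, 12 at 6, 70 with a shoot band of 2/3 to 3/2, 16 with 9/10 to 10/9 and 145 without minimum means. Scaling to total reads left 18 genes, 13 of them among the 36, and the median root log2 difference of all genes was then -0.48. The members stood 2.40 above the median of all genes under either scaling. Rescaling moves all genes nearly alike, so that distance was bound to stay and nothing is read from it. The 3 genes without split shoot reads could not enter the count under total scaling or those without 1 library, which gave 31 to 39. The median root log2 ratio was 2.38, 2.32 with a pseudocount of 10, 1.91 with total scaling and 2.36 to 2.42 without 1 root library. The 2 shoot calls became 0 with total scaling (1 gene at an unadjusted p under 0.05), without the filter (5) and with DESeq2 (2), and 0 to 3 without 1 library. Higher control root levels were called for 3 to 7 genes without 1 library, for 9 with total scaling and for 8 without the filter. Higher heated root levels were called for 22 genes with total scaling, against 19 in the main fit. Leaving out the 3 shoot-abundant genes or one of the near-equal pair, chosen after seeing the data, gave 33 and 35 genes. All root calls kept their side of the threshold under every alternative run. The selection used the same contrast, so nothing is read from these stable root calls. The tissue difference of a single gene changed its side of the threshold 17 times in control and 7 times in heated plants over all genes and alternatives, and no called difference reversed. The causes of these changes were not tested. No paired analysis was possible because the recovered libraries carry no replicate letter. With 2 libraries per root group and few reads in some genes, small differences were not detectable at this depth.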
